A study of Mus musculus with 39 samples.

Results

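The Tcl1 family is a group of small oocyte and lymphocyte proteins, and the 6 members described here are Tcl1, Tcl1b1, Tcl1b2, Tcl1b3, Tcl1b4 and Tcl1b5. They were taken by name, and all 6 were found among the 55487 genes of the count table. TCL1 proteins bind the pleckstrin homology domain of the kinase AKT and raise its activity, a step in the signalling that links growth factor receptors and PI3K to survival and growth. Human TCL1A is known as an oncogene that chromosome rearrangements switch on in T-cell leukaemia. In the mouse, Tcl1 is a maternal-effect gene: its messenger RNA is stored in the oocyte, and embryos of mothers without it cleave poorly. The mouse has in addition a run of Tcl1b genes, whose separate roles are less well known.

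Polyadenylated RNA was sequenced from wild-type mouse embryos with no other allele or agent, each library made from 1 whole embryo or 1 blastomere, the cell of a cleaving embryo. Separated 4-cell embryos numbered 5 (20 blastomere libraries), intact 4-cell embryos 4, separated 2-cell embryos 5 (10 blastomere libraries) and intact 2-cell embryos 5. The labels place separated 4-cell embryos 6 and 7 in batch 2 and all other embryos in batch 1. The comparisons ask how the stages differ and whether blastomeres apart and whole embryos differ. The labels give no strain and do not say that embryos came from separate mothers, so p-values measure the spread between these embryos only. Blastomere counts were added up within each embryo, which is the replicate. Levels are given as CPM, counts scaled to each embryo's total and by TMM factors, and are relative, so less RNA of a gene per cell and more RNA of other genes cannot be told apart.

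Totals per embryo were 13.0 to 103 M counts in separated 4-cell, 2.74 to 4.19 M in intact 4-cell, 14.2 to 56.2 M in separated 2-cell and 7.16 to 9.89 M in intact 2-cell embryos. All 10 oocyte and embryo markers had counts in each of the 4 groups. The 2 embryos of batch 2 stood apart in some of these markers, in no common direction. The maternal gene Dppa3 was at 4578 and 6863 CPM there, against 26418 to 32906 CPM in the batch 1 separated 4-cell embryos. Gdf9, also an oocyte gene, was higher in batch 2, at 17.2 and 25.7 CPM against 4.09 to 15.2 CPM. Zfp352 was at 7.89 and 27.9 CPM, against 0.309 to 5.57 CPM, and the pluripotency factor Pou5f1 at 88.5 and 180 CPM, against 0 to 4.63 CPM. Zp3, Bmp15, Ooep, Nlrp5, Zscan4d and Tdpoz1 overlapped between the batches. Cumulus, blood, lymphocyte and sperm marker lists summed to at most 50.6 CPM in any embryo. The 9 lymphocyte markers, of a lineage that expresses Tcl1, summed to 0 to 10.4 CPM in 4-cell embryos and to 1.397 to 49.5 CPM in 2-cell embryos, with Cd3e, Cd79a, Cd79b and Ptprc at 0 in all 2-cell embryos. Apart from these zeros, the part of such cells in the stage difference was not tested.

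All 6 genes lie in 1 cluster of 76.8 kb on mouse chromosome 12 (GRCm38, GENCODE M21 gene models), each with 4 exons in its first listed transcript. Tcl1b2 (chr12:105146014-105155225), Tcl1b1 (chr12:105159690-105166625), Tcl1b5 (chr12:105176344-105181145), Tcl1b3 (chr12:105191043-105195612) and Tcl1b4 (chr12:105201957-105206993) follow each other on the plus strand. Tcl1 (chr12:105216750-105222793) closes the cluster on the minus strand, facing them. Coding sequences span 351 bases in Tcl1 and Tcl1b1 and up to 369 bases in Tcl1b3. Between pairs of Tcl1b genes the coding sequences were 71.2% to 86.3% identical, with Tcl1b3 and Tcl1b5 the closest pair, and between Tcl1 and the Tcl1b genes 48.7% to 51.2%. Of the windows of 50 bases along the first listed transcript, 34.1% in Tcl1b3, 31.4% in Tcl1b2, 20.8% in Tcl1b5, 13.0% in Tcl1b1 and 4.28% in Tcl1b4 occurred also in another Tcl1b gene. Tcl1 shared none, and no window matched a gene outside the cluster. Counts of the Tcl1b genes could therefore be split between neighbours in part, while those of Tcl1 rest on unshared sequence. Of 234 member values, 1 was not a whole number (within 1e-09), against 12.6% of all non-zero values. It was a value of Tcl1, 88723.98 counts in blastomere 2 of separated 2-cell embryo 2, while all Tcl1b values were whole.

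The stretches before the transcription starts show what the Tcl1b genes share and where Tcl1 departs from them. They were read from RefSeq promoters (GRCm38.p6), in which all 6 members were found, and run 5′ to 3′ on the strand of the gene. Capitals mark the E-box CAGGTG on either strand (CACCTG when read on the other), the kind of site that basic helix-loop-helix factors such as the oocyte factor FIGLA bind. The 4 Tcl1b stretches cover bases 95 to 16 before the RefSeq start, namely chr12:105159609-105159688 (plus strand) for Tcl1b1, chr12:105146924-105147003 (plus) for Tcl1b2, chr12:105190950-105191029 (plus) for Tcl1b3 and chr12:105176249-105176328 (plus) for Tcl1b5. For Tcl1, bases 45 to 16 are shown, chr12:105222753-105222782 (minus strand), which lie in an exon of another annotated Tcl1 transcript. That of Tcl1b4 lies wholly within an exon of another annotated Tcl1b4 transcript. Its shorter stretch, bases 45 to 16, would leave out the E-box at bases 61 to 56 before the start, so Tcl1b4 is not shown.
Tcl1b1: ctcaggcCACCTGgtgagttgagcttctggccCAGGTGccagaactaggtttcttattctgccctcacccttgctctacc
Tcl1b2: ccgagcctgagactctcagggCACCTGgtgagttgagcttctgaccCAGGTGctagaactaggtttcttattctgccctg
Tcl1b3: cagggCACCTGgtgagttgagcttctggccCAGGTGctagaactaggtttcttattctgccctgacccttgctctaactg
Tcl1b5: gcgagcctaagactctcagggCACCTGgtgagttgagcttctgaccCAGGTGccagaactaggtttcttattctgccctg
Tcl1: ctcgctccagggggcacaggcccaCACCTG
Each of the 5 Tcl1b genes holds the E-box as a pair on opposite strands with the same spacing, and Tcl1 holds 1 copy. Within the 100 bases before the start, 7.03% of 32851 promoters hold at least 1 copy on either strand, and 0.356% (117 promoters) hold 2 or more. In the 250 bases upstream, pairs of Tcl1b genes aligned over 221 to 250 bases at 66.4% to 99.2% identity, the highest being Tcl1b2 with Tcl1b4, while Tcl1 aligned with them at 49.5% to 55.8%. The GC box CCGCCC was found in Tcl1 alone of the 6, against 35.7% of all promoters over the 300 bases from 250 before to 50 after the start. TATAAA, present in 13.6% of promoters, and the NOBOX elements TAATTG and TAATTA, present in 8.0% and 5.29%, were in none of the 6. The motifs were picked after reading these sequences, both strands were searched, and a match of letters is a description and not a bound site.

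All 6 members were far less abundant in 4-cell than in 2-cell embryos. Tcl1, the AKT coactivator, was measured at 32.2, 29.4, 29.3, 22.7 and 27.7 CPM in the separated 4-cell embryos, against 2013, 2316, 1687, 655 and 1904 CPM in the separated 2-cell embryos. In intact embryos it was at 18.4, 23.8, 16.1 and 15.9 CPM at the 4-cell stage, against 3195, 3423, 1142, 1008 and 418 CPM at the 2-cell stage. The stages did not overlap, and 4-cell embryos lay close together while 2-cell embryos spread widely. The log2 fold change of Tcl1 was −5.82 ± 0.65 (SE) between separated stages, 56.6-fold lower, and −6.63 ± 0.60 between intact stages, 99.1-fold lower (edgeR quasi-likelihood test, adjusted p = 3.99e-05 and 1.66e-06). By p-value Tcl1 ranked 8 and 5 among the 14114 genes tested.

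Tcl1b1, the most abundant of the Tcl1b genes by mean CPM, was at 7.81, 21.8, 7.79, 7.61 and 9.40 CPM in separated 4-cell embryos, against 1461, 1492, 1225, 270 and 1845 CPM in separated 2-cell embryos. Intact 4-cell embryos had 31.6, 16.4, 28.4 and 3.42 CPM, against 2355, 3930, 1437, 1005 and 209 CPM in intact 2-cell embryos. Again no 4-cell embryo reached the lowest 2-cell embryo. Its log2 fold change was −6.66 ± 0.99 in separated and −6.48 ± 0.86 in intact embryos (edgeR adjusted p = 0.000449 and 0.000108). Without separated 4-cell embryo 3 the separated value was −7.38.

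Tcl1b2, Tcl1b3 and Tcl1b4 behaved alike on their own scales. Tcl1b2 averaged 8.61 ± 8.80 CPM in separated 4-cell embryos and 682 ± 429 CPM in separated 2-cell embryos (SD, n = 5 each), and 13.8 ± 10.1 CPM in intact 4-cell embryos (n = 4) and 863 ± 795 CPM in intact 2-cell embryos (n = 5). Tcl1b3 averaged 10.4 ± 10.3 CPM and 567.6 ± 310 CPM in the separated 4-cell and 2-cell groups, and 8.07 ± 4.28 CPM and 757 ± 602 CPM in the intact 4-cell and 2-cell groups. Tcl1b4 averaged 2.42 ± 1.53 CPM and 409 ± 104 CPM in the separated 4-cell and 2-cell groups, and 7.88 ± 3.66 CPM and 591 ± 488 CPM in the intact 4-cell and 2-cell groups. The stages did not overlap for any of these 3 genes, separated or intact. Their log2 fold changes were −5.83 ± 1.10, −5.29 ± 0.98 and −7.12 ± 0.94 between separated stages, in the order of their names, and −5.95 ± 0.97, −6.55 ± 0.92 and −6.23 ± 0.79 between intact stages. The highest edgeR adjusted p among these 6 values was 0.00263, for Tcl1b2 in separated embryos. Single embryos moved some sizes: Tcl1b2 was at −6.85 without separated 4-cell embryo 3 and at −5.25 without intact 2-cell embryo 2, and Tcl1b3 at −6.12 without separated 4-cell embryo 2.

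Tcl1b5 was the least abundant member per kb at the 2-cell stage. It was at 0.0723, 0.320, 0.386, 1.28 and 0.930 CPM in separated 4-cell embryos, against 38.0, 110, 0.0485, 74.5 and 98.4 CPM in separated 2-cell embryos. The value of 0.0485 CPM is a single count in separated 2-cell embryo 3, so these 2 groups overlapped through that embryo. Intact 4-cell embryos 1 and 3 had no count, which allows up to 0.798 and 1.10 CPM (3 counts of the total, counting error only), and embryos 4 and 5 had 0.489 and 4.64 CPM. Intact 2-cell embryos had 242, 123, 55.4, 52.2 and 41.5 CPM, all above the intact 4-cell embryos. The log2 fold change was −7.93 ± 1.87 in separated and −6.28 ± 1.52 in intact embryos (edgeR adjusted p = 0.0119 and 0.012). The intact value was −9.23 without intact 4-cell embryo 5, which holds 19 of the 21 intact 4-cell counts, and −5.70 without intact 2-cell embryo 1.

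**Figure D1:**
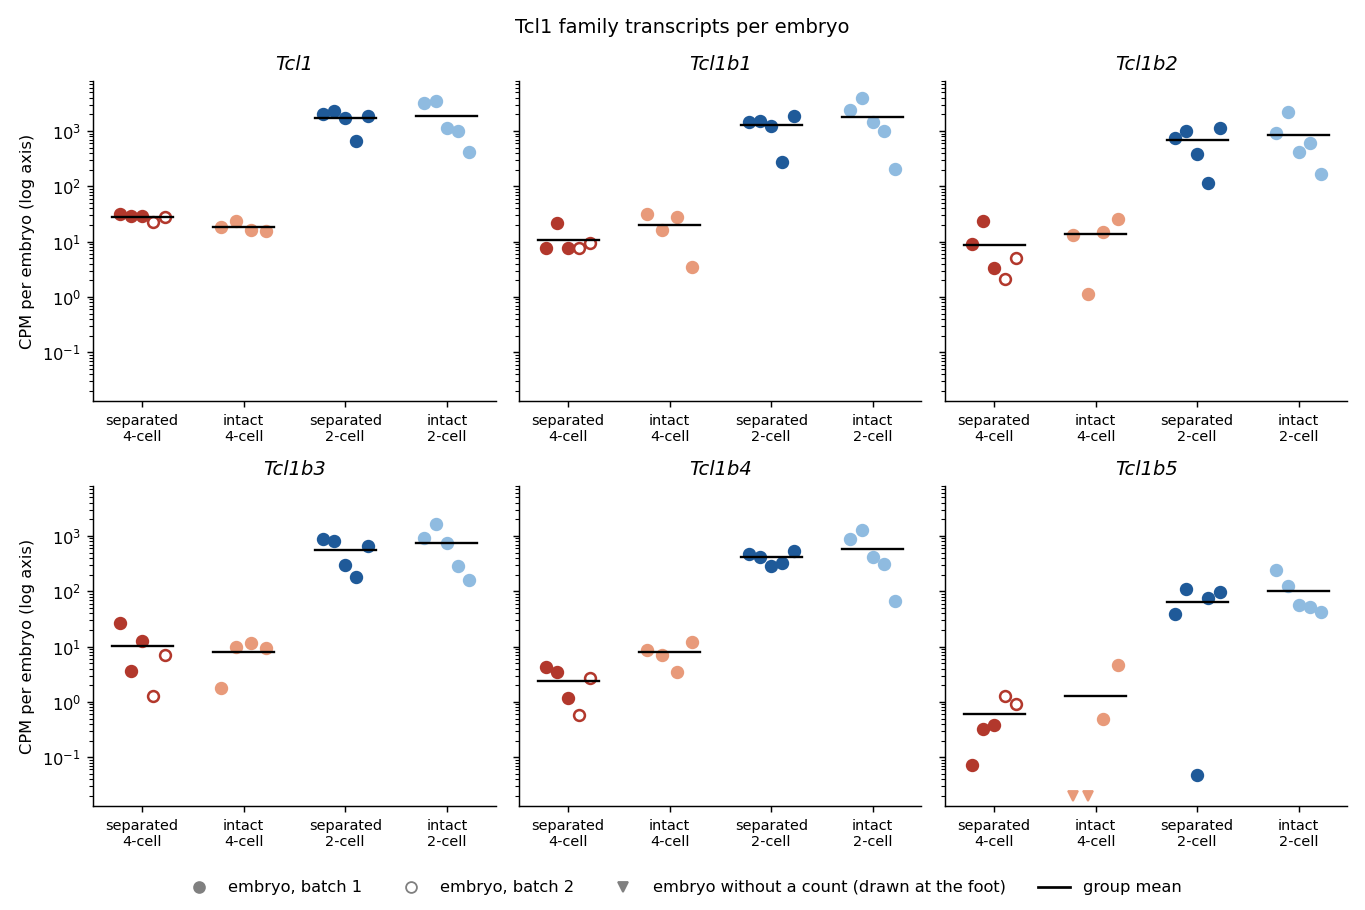
CPM of each member in each embryo (log axis) by group, with filled circles for batch 1, open circles for batch 2, triangles at the foot for embryos without a count and bars for the group means. The 4-cell embryos lie below the 2-cell embryos in every panel except for Tcl1b5 in separated 2-cell embryo 3, at 0.0485 CPM.

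Counted over the family, 6 of 6 members were lower at the 4-cell stage in intact embryos, where 5.0% of the 14114 genes tested were called lower and 5.43% higher, and 6 of 6 in separated embryos, where 4.7% were called lower and 6.41% higher. The members' groups did not overlap, in the lower direction, for 6 of 6 in intact embryos, against 7.11% of all genes, and for 5 of 6 in separated embryos, against 6.94%. The members' median log2 fold change was −6.24 between separated and −6.38 between intact stages, against −0.15 and −0.00 over all genes tested. Summed, the family made up 61.2 ± 19.9 CPM of separated 4-cell and 69.6 ± 7.85 CPM of intact 4-cell embryos, against 4697 ± 1956 CPM of separated 2-cell and 5938 ± 4620 CPM of intact 2-cell embryos. Of the raw counts, the family held 0.00638% in separated 4-cell and 0.00709% in intact 4-cell embryos on average, against 0.440% in separated 2-cell and 0.553% in intact 2-cell embryos. With limma voom in place of edgeR, log2 fold changes were similar but 1 of 6 members passed in separated embryos (Tcl1b4) and 2 of 6 in intact embryos (Tcl1b4 and Tcl1b5). For Tcl1 the voom value was −5.53 with adjusted p = 0.334 in separated and −6.16 with adjusted p = 0.347 in intact embryos.

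**Figure D2:**
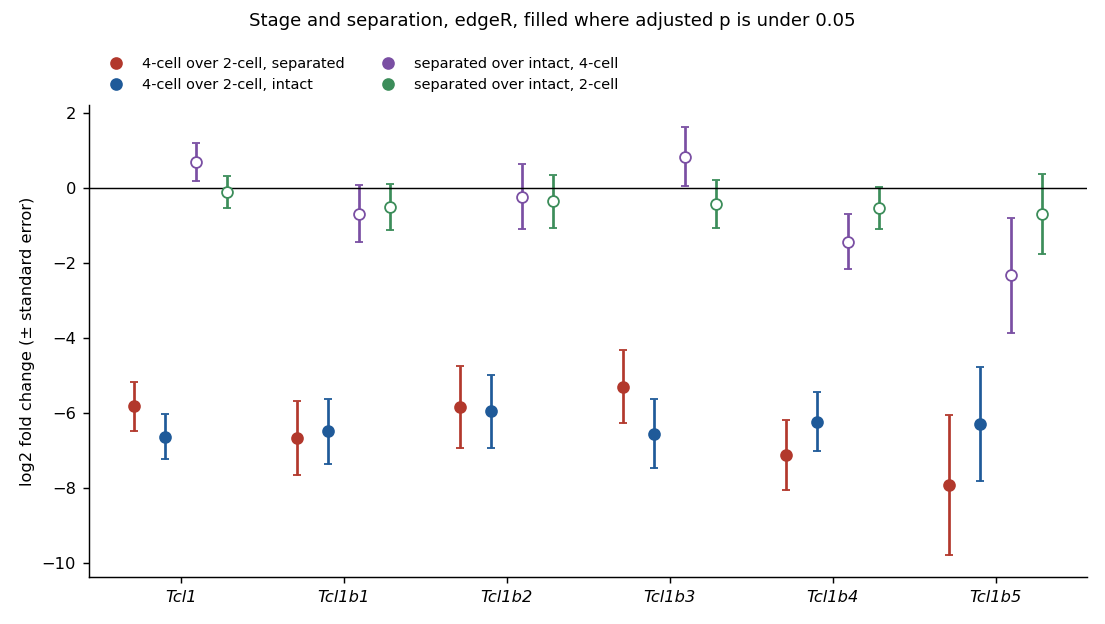
Log2 fold change with its standard error for each member in 4 comparisons (edgeR), filled where the adjusted p is under 0.05. Stage values lie between −5.29 and −7.93, and separation values between −2.32 and 0.85 with none filled.

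Taking embryos apart changed no member past the threshold. Of the 6 members, 0 passed at the 4-cell stage, where 0.0% of genes tested were called, and 0 at the 2-cell stage, where 0.0142% (2 genes) were called. None had an unadjusted p under 0.05 by edgeR in either comparison, and DESeq2 and limma voom called 0 of 6 in each. Of all 14114 genes, DESeq2 called 379 at the 4-cell and 492 at the 2-cell stage, and voom called 13 and 8. A count of 0 of 6 thus does not set the members apart from the background. At the 4-cell stage, the value nearest the threshold was that of Tcl1b4, at 2.42 ± 1.53 CPM in separated and 7.88 ± 3.66 CPM in intact embryos, a log2 fold change of −1.42 ± 0.74 (unadjusted p = 0.0685, adjusted p = 0.80). Tcl1 averaged 28.3 ± 3.51 CPM in separated and 18.6 ± 3.68 CPM in intact 4-cell embryos (log2 fold change 0.71 ± 0.51, edgeR adjusted p = 0.970). With batch 2 included, the groups overlapped between 22.7 and 23.8 CPM. The batch 1 separated embryos, whose level the test uses, had 29.3 to 32.2 CPM, against 15.9 to 23.8 CPM in the intact embryos. The test did not call this difference (edgeR unadjusted p = 0.179), and the share of all genes split in this way was not counted. Both separated means include batch 2. In batch 1 alone they were 30.3 ± 1.63 CPM for Tcl1 and 2.94 ± 1.58 CPM for Tcl1b4. At the 2-cell stage Tcl1 averaged 1715 ± 634 CPM in separated and 1837 ± 1373 CPM in intact embryos (−0.10 ± 0.42), and the other members lay between −0.34 and −0.68. The widest value at the 4-cell stage, −2.32 ± 1.53 for Tcl1b5, turned to 0.52 without intact 4-cell embryo 5. An intact embryo is 1 library and a separated embryo a sum of several, so separation and library make-up cannot be told apart. The stage effect in separated embryos minus that in intact embryos ran from −1.64 ± 1.82 for Tcl1b5 to 1.26 ± 1.03 for Tcl1b3, with 0 of 6 members called against 0.0% of genes, and none at an unadjusted p under 0.05.

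The 2 batches of separated 4-cell embryos were set against each other in the same fit. Between them 2.03% of genes were called, and 0 of 6 members, none at an unadjusted p under 0.05. Tcl1 was at 25.2 ± 3.52 CPM in batch 2 (n = 2) and 30.3 ± 1.63 CPM in batch 1 (n = 3). Tcl1b3 was at 4.22 ± 4.14 CPM in batch 2 and 14.5 ± 11.9 CPM in batch 1, a log2 fold change of −1.78 ± 0.999 (adjusted p = 0.482). Tcl1b5 ran the other way, with 1.10 ± 0.247 CPM in batch 2 and 0.259 ± 0.165 CPM in batch 1 (2.07 ± 1.62, adjusted p = 0.684), where batch 1 held 11 counts in all. Without batch 2, 6 of 6 members were still called lower in separated 4-cell embryos.

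Levels of different genes were compared as CPM per kb of exon, counting all annotated exon bases of a gene. This length exceeds the first listed transcript only in Tcl1 (1845 against 1398 bases), Tcl1b2 (1257 against 1009) and Tcl1b4 (1496 against 1031). With transcript lengths these genes would stand higher per kb. The places of Tcl1 beside Tcl1b1 and of Tcl1b2 beside Tcl1b3 therefore depend on the length used. At the 2-cell stage the order was Tcl1b1, Tcl1, Tcl1b3, Tcl1b2, Tcl1b4 and Tcl1b5, with means per kb of 1210 ± 572, 929 ± 344, 543 ± 297, 543 ± 341, 273 ± 69.6 and 60.9 ± 42.9 in separated embryos in that order. In intact 2-cell embryos they were 1718 ± 1371, 996 ± 744, 724 ± 576, 687 ± 632, 395 ± 326 and 97.6 ± 79.8. Over the 10 2-cell embryos, Tcl1b1 stood above Tcl1 per kb in 8, Tcl1 above Tcl1b3 in 9, Tcl1b2 above Tcl1b4 in 9 and Tcl1b4 above Tcl1b5 in 10. Tcl1b3 stood above Tcl1b2 in 5 of 10, so these neighbours did not differ beyond their spread. At the 4-cell stage the lower end of the order was much the same, with Tcl1b2 above Tcl1b4 in 8 of 9 embryos and Tcl1b4 above Tcl1b5 in 8. Tcl1 stood above Tcl1b3 in 6 and Tcl1b3 above Tcl1b2 in 4. Tcl1b1 stood above Tcl1 in 4 of 9, with a mean log2 ratio per kb of −0.13 ± 1.16 (SD), against 0.45 ± 0.51 in the 10 2-cell embryos.

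The make-up of the family per kb varied between embryos, and the size of each share depends on the same exon lengths. Tcl1 held 37.2% ± 10.1 of the family in separated 4-cell embryos (SD, n = 5), 19.2% ± 7.07 in intact 4-cell embryos (n = 4), 27.2% ± 4.09 in separated 2-cell embryos and 22.8% ± 4.71 in intact 2-cell embryos (n = 5 each). The separated 4-cell mean pools 31.6% ± 7.79 in batch 1 (n = 3) and 45.4% ± 7.76 in batch 2 (n = 2), while all intact embryos are of batch 1. Tcl1b1 ran from 12.3% to 33.9% in separated and from 6.10% to 52.0% in intact 4-cell embryos, against 22.2% to 40.9% in separated and 25.3% to 41.0% in intact 2-cell embryos. Tcl1b3 led in separated 4-cell embryo 2, at 42.7%, and Tcl1b2 in intact 4-cell embryo 5, at 38.2%. No embryo of the 2-cell stage was led by either. Tcl1b4 varied more among separated 2-cell embryos, from 6.06% to 18.8%, than among separated 4-cell embryos, from 1.58% to 4.85%, and ran from 3.70% to 15.1% in intact 4-cell and from 5.69% to 9.10% in intact 2-cell embryos.

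**Figure D3:**
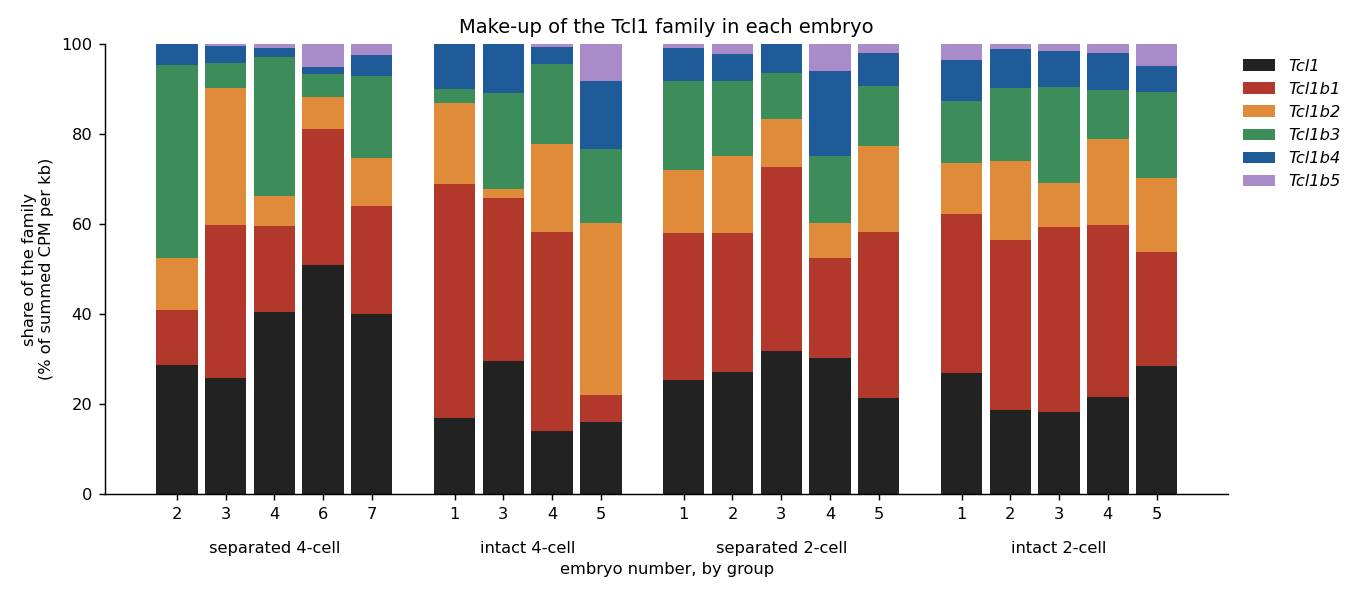
Share of each member in the summed CPM per kb of the family, 1 bar per embryo, grouped as separated 4-cell, intact 4-cell, separated 2-cell and intact 2-cell. Tcl1b3 reaches 42.7% in separated 4-cell embryo 2 and Tcl1b2 38.2% in intact 4-cell embryo 5, and Tcl1b4 reaches 18.8% in separated 2-cell embryo 4.

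Within the 2-cell stage, the members tended to be high or low in the same embryos. Intact 2-cell embryo 5 was lowest for all 6 members and embryo 2 highest for 5 of them, and separated 2-cell embryo 4 was lowest for 4. Over the 10 2-cell embryos, Pearson correlations of log2 CPM between pairs of members other than Tcl1b5 ran from 0.77 to 0.94 (10 pairs, median 0.89). Pairs with Tcl1b5 ran from 0.12 to 0.36 by Pearson and from 0.55 to 0.75 by Spearman correlation, which gives less weight to the single count of separated 2-cell embryo 3. Over the 9 4-cell embryos, pairs without Tcl1b5 ran from −0.42 to 0.47 (median 0.07). These embryos share libraries and scaling between genes, and the counts behind 4-cell values were lower: Tcl1 had 266 counts over the 4 intact 4-cell embryos and 67451 over the 5 intact 2-cell embryos.

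Single blastomeres carried the same stage difference. The family summed to 0 to 187 CPM (per total counts of the library) in the 20 blastomeres of 4-cell embryos, with a median of 46.2 CPM, against 1140 to 6503 CPM in the 10 blastomeres of 2-cell embryos, with a median of 3557 CPM. No 4-cell blastomere reached the lowest 2-cell blastomere.

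In the batch 1 4-cell embryos, Tcl1 was very unevenly spread over sisters, the blastomeres of 1 embryo. Embryo 2 had 0.892, 7.24, 129 and 2.12 CPM in blastomeres 1 to 4, so that 91.2% of its 445 Tcl1 counts came from blastomere 3. Embryo 3 had 1.56, 1.72, 92.5 and 40.5 CPM, with 70.9% of 460 counts in blastomere 3, and embryo 4 had 88.0, 0, 2.58 and 15.9 CPM, with 82.6% of 380 counts in blastomere 1. Yet the embryo sums came to between 29.3 and 32.2 CPM. In the batch 2 embryos Tcl1 was even: 49.6, 23.5, 25.6 and 21.8 CPM in embryo 6, and 35.5, 21.3, 33.5 and 34.7 CPM in embryo 7. Batch 2 libraries held 2.02 to 31.6 M counts and 11161 to 16479 genes with a count, against 2.40 to 5.23 M and 7923 to 9923 genes in batch 1. The part of library depth in this difference was not tested.

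The within-embryo SD of Tcl1 on the log2(CPM + 1) scale was 0.44 in batch 2 and 2.73 in batch 1 4-cell blastomeres, and 0.48 in 2-cell blastomeres. Genes of like level (within 0.5 of the mean of Tcl1 on that scale) had a median SD of 0.62 in batch 2 (1462 genes, quartiles 0.49 and 0.81), 2.16 in batch 1 (1163 genes, quartiles 1.78 and 2.50) and 0.27 at the 2-cell stage (56 genes, quartiles 0.22 and 0.37). Tcl1 thus lay under the lower quartile in batch 2 and above the upper quartile in batch 1 and at the 2-cell stage. For Tcl1b1 the values were 0.76, 1.81 and 1.01, against medians of 1.02, 2.19 and 0.33.

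Which sister was highest depended on the member. In embryo 2, Tcl1 and Tcl1b1 were highest in blastomere 3, Tcl1b2 in blastomere 4 (90.2% of 123 counts) and Tcl1b4 in blastomere 1 (70.7% of 58 counts). In embryo 4, blastomere 1 held most of the Tcl1 counts and none of any Tcl1b gene, while blastomere 4 held 89.1% of 101 Tcl1b1 counts and 98.8% of 164 Tcl1b3 counts. Blastomere 2 of that embryo had no count for any of the 6 members in 2.40 M, which allows up to 1.25 CPM each, and had 8283 genes with a count. Tcl1b5 was at 0 in 8 of 12 batch 1 and 3 of 8 batch 2 blastomeres.

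Sisters of 2-cell embryos were closer for Tcl1 than those of batch 1 4-cell embryos, and not closer than those of batch 2. The higher Tcl1 sister had 1.01 times the lower in embryo 4 and 2.09 times in embryo 2, the lowest and highest of the 5 embryos. Embryo 4 also held the widest gaps of Tcl1b1 and Tcl1b5, with Tcl1b1 at 298 and 47.7 CPM and Tcl1b5 at 84.4 and 4.85 CPM in its blastomeres. In embryos 1 and 3, 5 of 6 members were higher in blastomere 1, in embryo 2 this held for 1, in embryo 4 for 3 and in embryo 5 for 2. Blastomere numbers carry no order, and the higher sister of the family sum also had more counts in embryos 1, 2 and 4.

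**Figure D4:**
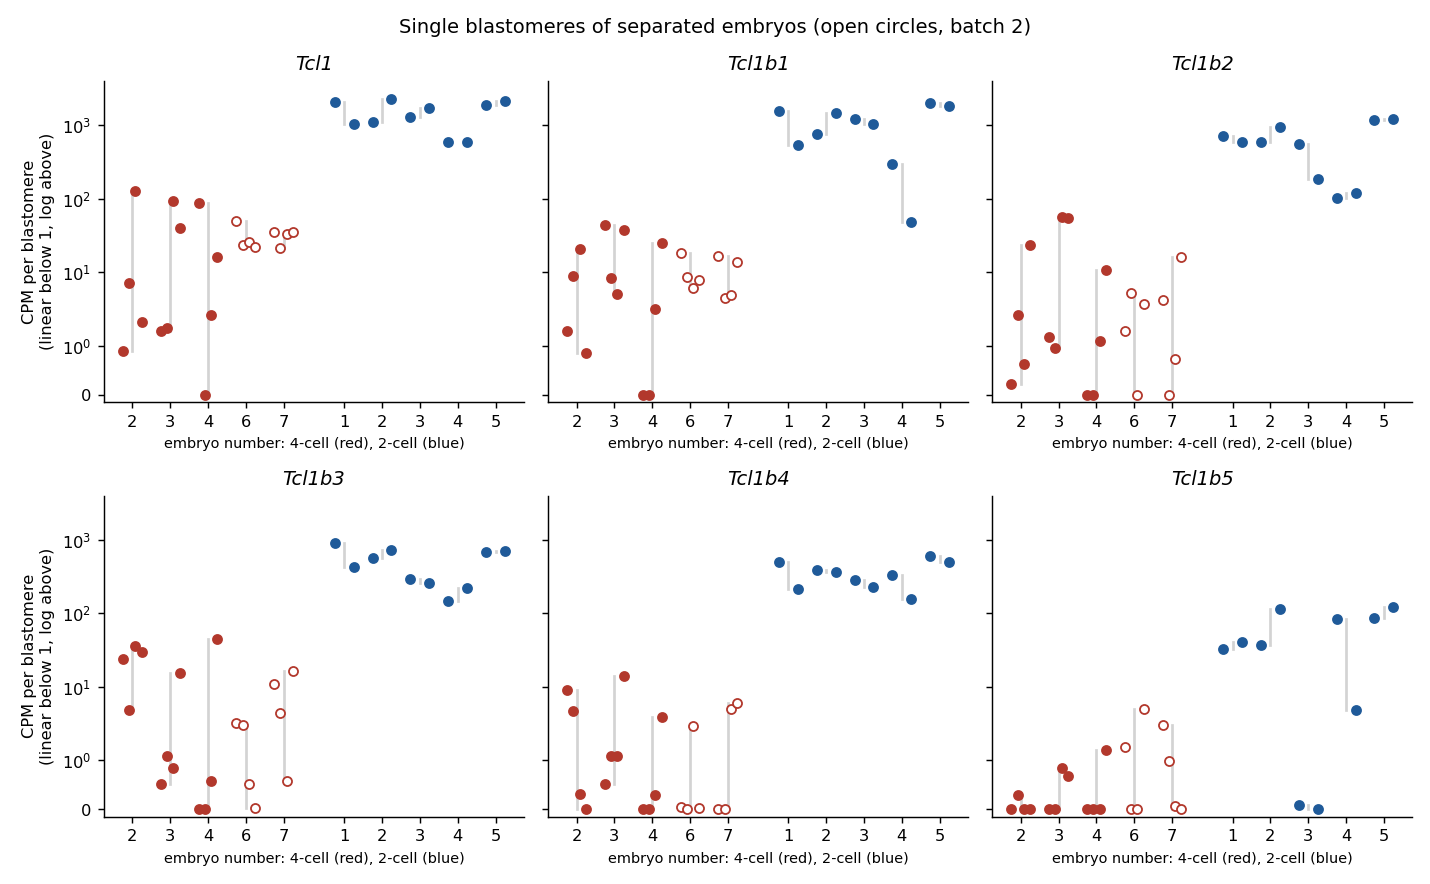
CPM of each member in each blastomere of the separated embryos (linear below 1, log above), by embryo, 4-cell in red (open circles for batch 2) and 2-cell in blue, with grey lines spanning the sisters. Tcl1 spans 0.892 to 129 CPM within batch 1 4-cell embryo 2 and 21.3 to 35.5 CPM within batch 2 embryo 7.

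Within 250 kb of the cluster's ends the annotation lists 13 other genes, of which 7 had enough counts to be tested. Of these, 0 were called between the stages, separated or intact, by edgeR. Over all genes tested, 5.0% were called lower and 5.43% higher in intact embryos, and 4.7% and 6.41% in separated embryos. A count of 0 of 7 thus does not set the flanking genes apart from the background. The nearest is Gm47672, a processed pseudogene 10.6 kb before Tcl1b2. It had 6 counts over the separated 4-cell and 1 over the intact 4-cell embryos, against 760 over the separated 2-cell and 139 over the intact 2-cell embryos (log2 fold changes −7.09 ± 3.17 and −5.73 ± 2.704, unadjusted p = 0.0373 and 0.0468, adjusted p = 0.151 and 0.172). Snhg10, a small nucleolar RNA host gene 114 kb away, averaged 8.73 ± 6.51 CPM in separated 4-cell and 55.0 ± 22.6 CPM in separated 2-cell embryos (−2.10 ± 0.87, unadjusted p = 0.0262, adjusted p = 0.125), and in intact embryos the log2 fold change was −2.25 ± 0.79 (unadjusted p = 0.0101, adjusted p = 0.0733). Snhg10 holds the small RNA genes Scarna13 and Mir3069 on the same strand, so its counts are uncertain. Glrx5, which serves iron-sulphur cluster assembly and lies 103 kb away, was at 34.2 ± 24.0 CPM in separated 4-cell and 35.9 ± 29.3 CPM in separated 2-cell embryos. On the other side, Tunar, Gm2721 and Gm46376 had no count in any library.

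**Figure D5:**
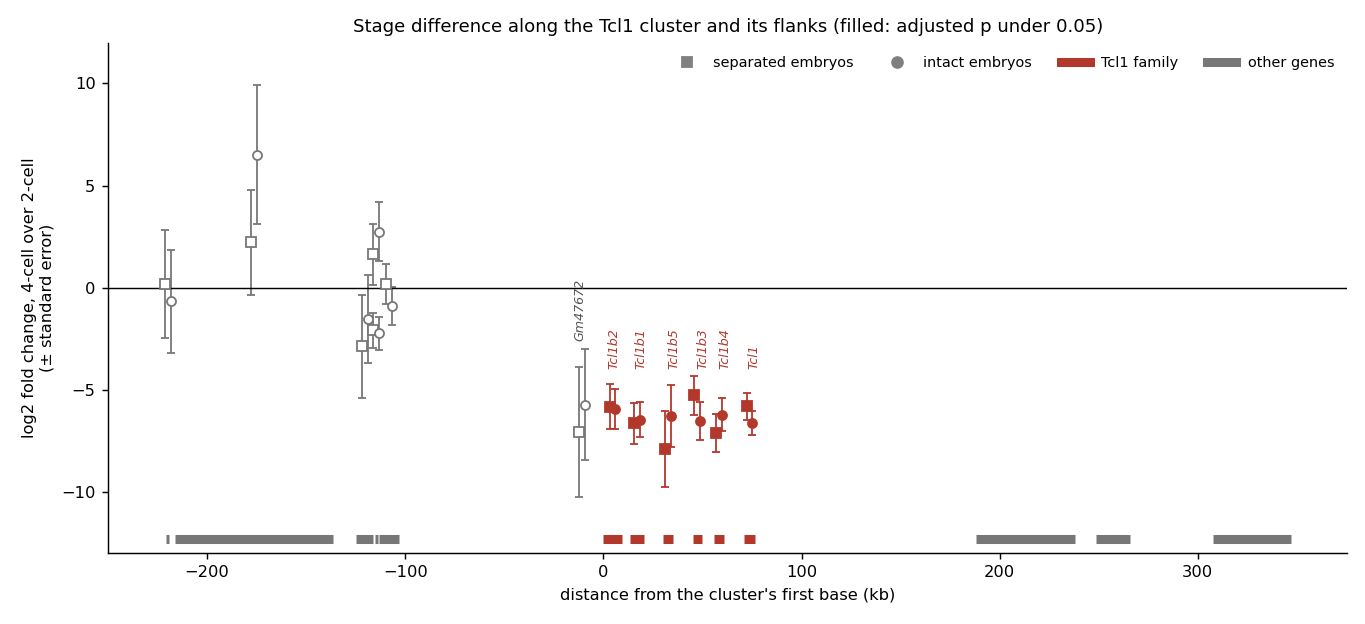
Log2 fold change of 4-cell over 2-cell embryos with its standard error (squares separated, circles intact, filled where the adjusted p is under 0.05) at each gene's distance from the first base of the cluster, with gene spans drawn at the foot. The members, in red, lie between −5.29 and −7.93. None of the 7 flanking genes tested, in grey, is filled, where 1471 (intact) and 1569 (separated) of all 14114 genes tested were called.

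Mtcp1, the X-linked relative of Tcl1 whose product also binds AKT, had 211 counts over the separated 4-cell, 1 over the intact 4-cell, 19 over the separated 2-cell and 3 over the intact 2-cell embryos. That was too few to be tested. Its highest value was 5.18 CPM, from 81 counts in separated 4-cell embryo 3.

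The pathway that TCL1 proteins act on was read from a list of 51 genes, of which 42 were tested. In separated embryos 2 were higher and 2 lower at the 4-cell stage, and in intact embryos 1 was higher and 1 lower, shares of the list near the background of all genes. With other tools this did not hold in separated embryos: DESeq2 called 26.2% of the list lower, against 14.0% of all genes, and voom 14.3%, against 6.98%. The median log2 fold change of the list was −0.74 in separated and −0.43 in intact embryos. The kinase genes Akt1 and Akt2 were not called. Akt1 averaged 6.29 ± 5.28 CPM in separated 4-cell and 10.6 ± 9.29 CPM in separated 2-cell embryos, and 4.53 ± 4.97 CPM in intact 4-cell and 6.49 ± 4.74 CPM in intact 2-cell embryos. Akt2 averaged 7.32 ± 8.28 CPM and 4.34 ± 8.05 CPM in separated 4-cell and 2-cell embryos.

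Foxo3, a transcription factor that AKT phosphorylates, was the one pathway gene lower in both. It averaged 7.20 ± 6.29 CPM in separated 4-cell and 77.2 ± 23.1 CPM in separated 2-cell embryos (log2 fold change −4.51 ± 0.86, edgeR adjusted p = 0.00279), and 13.0 ± 9.01 CPM in intact 4-cell and 88.97 ± 68.8 CPM in intact 2-cell embryos (−2.78 ± 0.69, adjusted p = 0.0147). The intact call was lost without intact 2-cell embryo 1 (−2.19, adjusted p = 0.0521) and with the replicate block (−2.83, adjusted p = 0.0525). Mtor, the kinase of the mTOR complexes, was lower by the test in separated embryos (−5.63 ± 1.78, adjusted p = 0.0465), with 8.21 ± 11.1 CPM at 4-cell and 27.2 ± 28.004 CPM at 2-cell, and groups that overlapped. The 4-cell value was 19.7 ± 6.91 CPM in batch 2 and 0.543 ± 0.749 CPM in batch 1, whose level the test uses. The genes called higher rest on few counts in places. Irs2, an insulin receptor substrate, had 774 counts over the separated 4-cell and 1 over the separated 2-cell embryos (adjusted p = 0.0444). Pik3r2, a PI3K regulatory subunit, had 1140 and 0 counts there, at least 302-fold higher (3 counts set over the group, adjusted p = 0.0461), 1 separated 4-cell embryo having none. Batch 2 held 1100 of these counts and batch 1 held 40, and with batch 1 alone, whose level the test uses, the bound was 55.9-fold. Akt1s1, an mTOR complex inhibitor that AKT phosphorylates, had 41 counts over the intact 4-cell and 0 over the intact 2-cell embryos, at least 38.1-fold higher (adjusted p = 0.0452). The calls of Mtor, Irs2, Pik3r2 and Akt1s1 were each lost with the replicate block, without batch 2 and without at least 1 single embryo.

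The patterns most like that of Tcl1 were sought by Pearson correlation of log2 CPM over the 19 embryos, among 6630 genes of at least 10 CPM on average. They were Spin1 (0.988), a maternal chromatin reader, Pate14 (0.983), Tesc (0.978), which encodes a calcium-binding protein, C86187 (0.976) and Uchl1 (0.975), a ubiquitin hydrolase of the oocyte. Tcl1b1 came at rank 7 (0.971), Tcl1b3 at 17, Tcl1b4 at 21, Tcl1b2 at 57 and Tcl1b5 at 554. For Tcl1b1 they were Tcl1 (0.971), Btg4 (0.962), the adaptor that brings a deadenylase to maternal messages, Pate14 (0.962), Spin1 (0.962) and Pan3 (0.961), a subunit of another deadenylase. The 19 embryos form 2 clusters by stage, so these values mostly restate the stage difference. With Spearman correlation 3 of the 5 stayed for Tcl1 and 0 of 5 for Tcl1b1.

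These genes differed in how far they fell. They were picked by likeness to Tcl1 in these same embryos, so a stage difference was built into the choice and only its size is described. Spin1 averaged 220 ± 47.4 CPM in separated 4-cell and 2637 ± 869 CPM in separated 2-cell embryos (log2 fold change −3.55 ± 0.41), so that it remained readily detected at the 4-cell stage. The log2 fold change of Tesc was −4.26 ± 0.53 in separated and −5.58 ± 0.50 in intact embryos, and that of Uchl1 was −3.45 ± 0.68 and −4.48 ± 0.64. Pate14 had 6 counts over the separated 4-cell and 0 over the intact 4-cell embryos, against 3578 over the separated 2-cell and 959 over the intact 2-cell embryos, at least 115-fold lower in the intact comparison (3 counts set over the group).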

How the data were processed

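RNA of whole embryos and single blastomeres was copied with oligo-dT priming and template switching, amplified and tagmented, per the labels' protocols. Reads were handled with Trim Galore 0.6.10, STAR 2.7.3a and RSEM 1.2.28 on GRCm38, per the submitters' processing notes. The annotation, read length and strand setting are not given in the sources used here. The authors deposited expected counts per gene for 39 libraries. No other per-sample column was in the table.

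Counts were summed per embryo (19 embryos, 4 groups) and rounded to whole numbers. The test was the quasi-likelihood F-test of edgeR 4.0.16 with TMM scaling, filterByExpr with a minimum count of 10 (14114 genes), the 4 groups and batch as terms, and Benjamini-Hochberg adjustment at 0.05 over all genes. Batch 2 holds separated 4-cell embryos only, so tests use the batch 1 level of separated 4-cell embryos. Standard errors are |log2 fold change| / sqrt(F). The fit had a biological coefficient of variation of 1.43 and, in degrees of freedom, 14 residual and 5.75 prior. CPM of embryos is TMM-normalised, and CPM of blastomeres and marker lists is per total counts. CPM per kb uses the exon union of GENCODE M21. Correlations used log2 CPM with a prior count of 2. Intervals and limits at 0 counts (3 counts) cover counting error only, since no molecular identifiers are described.

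Alternatives were DESeq2 size factors, DESeq2 1.42.0, limma 3.58.1 voom with quality weights, no count filter, a minimum count of 50, a fit of only the groups compared, a replicate block, thinning to 2.74 M counts, dropping the batch term, dropping batch 2, dropping each embryo in turn and, chosen after seeing the data, leaving out the 3 blastomeres of separated 4-cell embryos with under 3 M counts. Replicate numbers do not pair the embryos: deviations of same-numbered embryos correlated at −0.055 to 0.025. The edgeR script was tested on simulated data. Genes named are the members, Mtcp1, genes within 250 kb, at most 3 called pathway genes per role by smallest p, and the 5 genes most like Tcl1 and Tcl1b1. Akt1 and Akt2, and marker genes that describe batch 2, are named outside that rule. The members and lists were chosen with earlier results of these data known. R 4.3.3, Python 3.11.15, pandas 2.3.3 and Biopython 1.88 were used.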

Additional observations from a re-analysis of the deposited data

Results flagged for a closer look

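Member values were screened for single embryos far from the rest of their group with Dixon's test at 95%, over 24 groups of 4 or 5 embryos, where chance alone marks about 1 group in 20. Tcl1b1 stood out in separated 4-cell embryo 3, at 21.8 CPM, with the other separated 4-cell embryos at 7.61 to 9.40 CPM. Tcl1b5 stood out in intact 4-cell embryo 5, at 4.64 CPM (19 counts), with the other intact 4-cell embryos at 0 to 0.489 CPM.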

How the results depend on the processing

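Stage calls of the members were stable but for limma voom, with which 2 of 6 passed in intact and 1 of 6 in separated embryos. The cause was not tested. With the replicate block, 6 members passed in intact and 5 in separated embryos, where Tcl1b5 did not (−6.72, adjusted p = 0.0672). Leaving out each embryo in turn kept all at 6 (range 6 to 6), with adjusted p up to 0.0483 and log2 fold changes from −9.23 to −4.87. With the block the intact stage values of Tcl1b3 and Tcl1b5 were −5.94 and −7.38. For Tcl1b5 voom gave −7.52 in intact and −6.85 in separated embryos, and no batch term −6.68 in separated embryos. No setting called a member for separation, interaction or batch. Of all 14114 genes, DESeq2 called 492 for separation at 2-cell, 379 at 4-cell, 518 for the interaction and 1275 for batch. For voom these numbers were 8, 13, 2 and 2372. The block could not be fitted for batch. Over all genes, the stages differed for 1471 (intact) and 1569 (separated) genes, against 3046 and 3219 with DESeq2, 2841 and 2318 with voom, and 738 and 715 with the block. With DESeq2 size factors the all-gene median was −0.13 in intact and −0.21 in separated embryos.

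Pathway counts were unstable. Genes higher in intact embryos numbered 1, against 3 with DESeq2, 4 with voom, 2 without a filter, 3 after thinning, and 0 with the block, without the batch term or without batch 2 (0 to 2 with embryos left out). Genes lower there numbered 1, against 2 with DESeq2 size factors, the stricter filter, the compared groups alone, thinning, voom or short libraries left out, 3 with DESeq2 and 0 with the block (0 to 2 with embryos left out). Genes higher in separated embryos numbered 2, against 1 with DESeq2, voom, no filter, the stricter filter, thinning or short libraries left out, and 0 with the compared groups alone, the block or batch 2 left out (0 to 2 with embryos left out). Genes lower there numbered 2, against 11 with DESeq2, 6 with voom, and 1 without a filter, with the block or without batch 2 (1 to 3 with embryos left out).

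Of 1054 member values under alternatives, 40 changed sign, all of values not called. For separation at 2-cell, Tcl1 turned to 0.058 with voom, 0.007 without a filter and 0.096 with the block, and Tcl1b4 to 0.062 with voom; with embryos left out Tcl1 ran from −0.35 to 0.25, Tcl1b1 from −0.79 to 0.01, Tcl1b2 from −0.69 to 0.365 and Tcl1b3 from −0.68 to 0.11. At 4-cell, Tcl1b2 turned to 0.17 with voom and ran from −1.20 to 0.28, and Tcl1b5 from −2.73 to 0.52. In the interaction, Tcl1b1 turned to 0.043 with voom and 0.042 without batch 2 (−0.79 to 0.20), Tcl1b2 to −0.36 without the batch term and −0.15 without short libraries (−0.81 to 0.67), and Tcl1b5 to 0.67 with voom and 0.66 with the block (−2.23 to 1.27). Between batches, Tcl1 ran from −0.37 to 0.039 and Tcl1b1 from −0.81 to 0.40. Depth limits 4-cell values of Tcl1b5 most, with 21 counts over the intact 4-cell embryos.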
